A study of Mus musculus with 2 samples.

Results

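The promoters of the cytosolic ribosomal protein genes were examined for accessibility in mouse kidney. These genes were the protein-coding genes of the GENCODE M21 annotation named Rpl or Rps plus a number, with or without the suffix a, x, l or y, together with Rplp0, Rplp1, Rplp2, Rpsa and Fau. The kinase genes named Rps6k were left out. The name rule found 81 genes among the 21670 protein-coding genes of the autosomes and the X chromosome, of which 49 encode large subunit proteins and 32 encode small subunit proteins or Fau. The study holds 2 DNase-seq libraries of kidney from female B6CASTF1/J mice aged 8 to 10 months, numbered as biological replicates 1 and 2 of 1 group, with no treatment and no other genotype. B6CASTF1/J animals are first-generation hybrids of the C57BL/6J and CAST/EiJ strains, and 1 chromosome set in every nucleus is of CAST/EiJ origin, whose reads may map less well to the reference, which was not tested. The replicates are separate tissue samples under a shared donor entry, and the labels do not say if they were different animals, so part of their spread may be technical. The tissue was whole kidney, so a promoter open in few cells and one weakly open in many cells cannot be told apart.

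DNase I cuts DNA that is not wrapped in nucleosomes, so a peak of cuts marks an accessible region, and a footprint marks a short stretch inside such a region that was cut less than its surroundings, often where a protein is bound. A ribosome needs most of its proteins in equal number, and the genes for them lie scattered over the genome and are used in nearly every cell. In mammals their promoters are known for short first exons, for initiation inside a run of pyrimidines that becomes the 5' terminal oligopyrimidine (TOP) of the mRNA, for the scarcity of a canonical TATA box, and for binding sites of factors such as ETS proteins, SP1, YY1 and ZBTB33.

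The peak lists held 137083 peaks in replicate 1 and 125000 in replicate 2, and the footprint lists held 316362 and 312966 footprints. The deposited peak signal came in whole steps of 0.00827 and 0.00834, which would stand for 120.9 and 119.9 M tags (M, mega) if 1 step were 1 tag. Of 13 marker genes of kidney cell types, 8 had an open promoter in both libraries, among them Lrp2 and Umod, while genes such as the podocyte gene Nphs1 and the tubule genes Slc34a1, Pvalb and Aqp2 did not. Of 10 marker genes of blood, liver, muscle and neurons, only the liver gene Alb was open, with a mean signal of 0.373. Of all protein-coding genes 59.6% were open, so the count for the kidney markers lies near the background share.

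The promoters shown here carry the patterns described below and were taken from the GRCm38.p6 (mm10) genome. Each stretch runs 5′ to 3′ on the strand of the gene, from 80 bases before the annotated transcription start site (TSS) to 19 bases after it, 100 bases in all, and capitals mark bases that lay under a footprint in both libraries. A set of 3 genes holds, under a footprint, the palindrome that consists of the letters TCTCGCGA followed by GA. They are Rps6 at chr4:86857393-86857492 on the minus strand, Rpl26 at chr11:68901503-68901602 on the plus strand and Rps28 at chr17:33824543-33824642 on the minus strand.
Rps6: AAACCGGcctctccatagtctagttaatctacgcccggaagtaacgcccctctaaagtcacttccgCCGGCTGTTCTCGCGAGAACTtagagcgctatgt
Rpl26: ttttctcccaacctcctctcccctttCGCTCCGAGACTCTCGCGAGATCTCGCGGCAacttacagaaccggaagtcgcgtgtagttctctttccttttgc
Rps28: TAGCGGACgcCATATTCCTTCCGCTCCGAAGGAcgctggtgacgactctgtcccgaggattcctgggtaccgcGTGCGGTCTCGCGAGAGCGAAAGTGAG
In each of them the whole palindrome is in capitals, over the TSS itself in Rps6 and Rps28 and upstream of it in Rpl26.

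The next set shows footprints over other known promoter elements. Rplp0, at chr5:115559387-115559486 on the plus strand, had the highest mean signal of the 81 genes and carries a CCAAT box under a footprint. Rpsa, at chr9:120127609-120127708 on the plus strand, holds 2 matches to the NRF1 element, GCGCA and GCGC separated by any base. Rps9, at chr7:3703913-3704012 on the plus strand, and Rpl13, at chr8:123102270-123102369 on the plus strand, hold the cyclic AMP response element TGACGTCA. Rpl18, at chr7:45715377-45715476 on the plus strand, and Rpl34, at chr3:130730379-130730478 on the minus strand, hold the YY1 element AANATGGC. The RefSeq start of Rpl18 lies 2614 bases downstream of the start used here. Rps21, at chr2:180257297-180257396 on the plus strand, holds the ETS element CCGGAAG.
Rplp0: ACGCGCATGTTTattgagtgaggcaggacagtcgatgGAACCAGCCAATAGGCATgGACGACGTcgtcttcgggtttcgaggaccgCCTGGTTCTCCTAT
Rpsa: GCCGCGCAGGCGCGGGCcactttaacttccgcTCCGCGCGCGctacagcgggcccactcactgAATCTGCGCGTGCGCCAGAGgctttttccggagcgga
Rps9: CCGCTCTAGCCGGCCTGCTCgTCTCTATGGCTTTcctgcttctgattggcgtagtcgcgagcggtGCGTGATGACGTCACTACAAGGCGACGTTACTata
Rpl13: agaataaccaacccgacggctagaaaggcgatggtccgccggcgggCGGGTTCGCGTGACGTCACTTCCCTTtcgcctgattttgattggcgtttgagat
Rpl18: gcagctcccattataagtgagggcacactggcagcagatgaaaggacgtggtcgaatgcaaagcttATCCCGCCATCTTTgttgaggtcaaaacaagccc
Rpl34: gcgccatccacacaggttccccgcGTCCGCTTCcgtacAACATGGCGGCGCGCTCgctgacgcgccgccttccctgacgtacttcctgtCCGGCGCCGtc
Rps21: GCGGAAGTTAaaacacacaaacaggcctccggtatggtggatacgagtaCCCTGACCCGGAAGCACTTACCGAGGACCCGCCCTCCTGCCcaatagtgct
In Rps9 the footprint over TGACGTCA also covered the element ACTACAA, whose first base is the last base of TGACGTCA.

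The last set shows promoters with no footprint. The tissue-restricted genes Rpl39l, at chr16:10170146-10170245 on the plus strand, and Rpl10l, at chr12:66284382-66284481 on the minus strand, had neither a peak nor a footprint in either library.
Rpl39l: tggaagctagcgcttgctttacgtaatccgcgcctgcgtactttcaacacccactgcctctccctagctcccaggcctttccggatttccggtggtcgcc
Rpl10l: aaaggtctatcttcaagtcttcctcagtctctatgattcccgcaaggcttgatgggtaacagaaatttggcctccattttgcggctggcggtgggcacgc
Both are printed wholly in lower case, since no base of either lay under a shared footprint.

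Nearly all of the ribosomal protein promoters were open in kidney. A promoter was called open where a peak lay within 500 bases of the main TSS of the gene in each library, and 76 of 81 ribosomal protein genes (93.8%) met this, against 59.6% of all protein-coding genes. The shorter, stricter peak lists gave the same count of 76, and the share of all protein-coding genes under them was not computed. Open promoters were found for 45 of 49 large subunit genes and 31 of 32 small subunit genes.

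The 5 genes without a peak at the main TSS fell into 2 kinds. Rpl3l, Rpl10l and Rpl39l are paralogs of Rpl3, Rpl10 and Rpl39 that are known for expression in muscle (Rpl3l) or testis (Rpl10l and Rpl39l). They had no peak and no footprint within 500 bases of the TSS in either library, and no base there was listed at a false discovery rate (FDR) of 0.05 or less. Their partners were open, with a signal of 11.2 in replicate 1 and 12.1 in replicate 2 for Rpl3, 7.39 and 5.94 for Rpl10, and 4.31 and 5.07 for Rpl39. Rps27l, a paralog of Rps27 that p53 is known to induce, was the only one of the 4 paralogs with the suffix l that was open. It had 6.98 and 7.65, close to the 6.52 and 7.34 of Rps27.

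Rps10 and Rpl17 had no peak at the main TSS but had one at another annotated start. The Rps10 peak at chr17:27635301-27635500 in replicate 1 lay nearest a start 1124 bases downstream, with a signal of 3.22, and the replicate 2 peak had 3.64 (mean 3.43 ± 0.296, SD, n = 2). The Rpl17 peak at chr18:75000381-75000580 covered the start 1919 bases downstream and had 7.52 and 9.91 in replicates 1 and 2 (mean 8.72 ± 1.69). With any annotated protein-coding start allowed, 78 of the 81 genes were open in both libraries, and the other 3 were the tissue-restricted paralogs. Of these, Rpl3l had a peak in replicate 2 only, with a signal of 0.667, nearest a start 4865 bases downstream. The share of all protein-coding genes open under this wider rule was not computed. Rps14, a small subunit gene lost in the 5q- syndrome in humans, had low peaks of 2.65 and 2.59 at its main TSS and stronger ones of 5.66 and 7.23 at a start 27447 bases downstream. For Rps10, Rpl17 and Rps14 the main TSS of the annotation is therefore not where the strongest peak lay.

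The signal of the open ribosomal protein promoters had a median of 8.71 (mean of the libraries, interquartile range 6.28 to 11.8, range 2.41 to 21.0), against a median of 4.72 over all 12908 open promoters (interquartile range 2.06 to 8.60). The median was 7.57 in replicate 1 alone and 9.13 in replicate 2 alone. These values use the strongest peak in the window, and with all peaks in the window summed the median was 9.26. A total of 65 of 76 lay above the median of all open promoters, against 50% by definition. A signal of 10 or more was reached by 27 of 76 (35.5%), against 18.9% of all open promoters. The median of the small subunit genes was 9.26 and that of the large subunit genes 8.05, a difference that lies well inside the range of either group. Among all open promoters rich in CpG (observed over expected ratio of 0.6 or more) the median was 5.89.

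**Figure D1:**
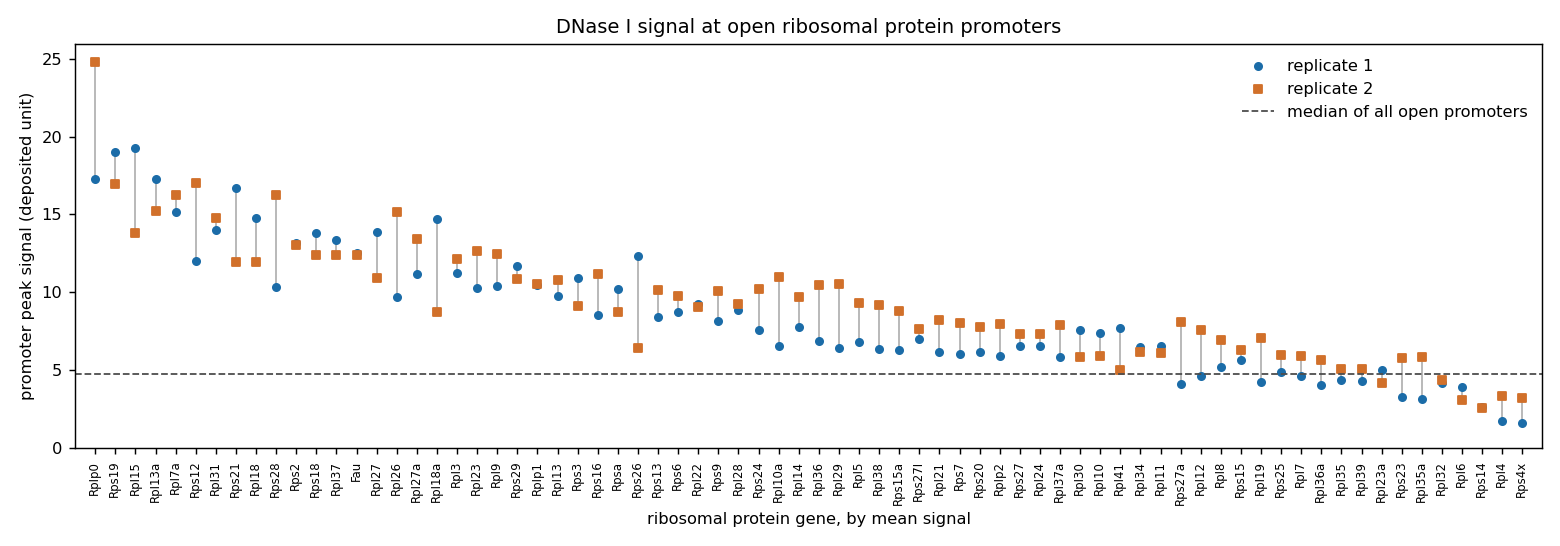
Deposited peak signal at 72 of the 76 open ribosomal protein promoters (y axis, linear), ordered by mean signal (x axis), with a circle for replicate 1 and a square for replicate 2 of each gene joined by a line. The dashed line is the median of all open promoters (4.72), and 62 of the 72 genes have a mean above it.

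The ribosomal P stalk, which recruits the elongation factors, included the promoter with the highest mean signal. Rplp0 had a signal of 17.3 in replicate 1 and 24.8 in replicate 2 (mean 21.0 ± 5.32, SD, n = 2) and ranked 151 among all open promoters by the mean, while in replicate 1 Rpl15 and Rps19 were higher. Rplp1 had 10.5 in both libraries. Rplp2 had 5.93 and 7.95, with its peak centred 210.5 bases downstream of the main TSS. Of the 3 stalk genes, Rplp0 was thus highest and Rplp2 lowest in both libraries by the strongest peak. Rplp2 had 2 peaks in the window in each library, with sums of 11.5 and 14.1, above the value of Rplp1.

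By mean signal, the next promoters belonged to proteins of both subunits. Rps19, which is needed for maturation of the small subunit RNA, had 18.98 and 16.98 in replicates 1 and 2. Rpl15 had 19.3 and 13.8, and Rpl13a, which is known for a separate part in the silencing of inflammatory mRNAs, had 17.3 and 15.2. Rpl7a had 15.1 and 16.2. Rps12 had 12 and 17. Rpl31, at the exit of the peptide tunnel, had 14.01 and 14.8, and Rps21 had 16.7 and 11.97. For Rplp0, Rpl15, Rps12 and Rps21 the SD between the libraries was above 3 signal units, so the order within the 10 strongest genes, of which 8 are named here, is not resolved. All 10 exceeded 8.60, the upper quartile of the mean signal of all open promoters, in both libraries.

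Among the 5 lowest of the open promoters were those of Rps4x, Rpl4, Rps14 and Rpl6. Rps4x, the X-linked small subunit gene, had 1.60 and 3.23. Rpl4, which lines the peptide tunnel, had 1.70 and 3.32, with the peak centred upstream at −329.5. Rpl6 had 3.91 and 3.05. Rps4x and Rpl4 were the only ones of the 5 that differed by more than 1 signal unit between the libraries.

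Fau, which encodes a ubiquitin-like protein joined to Rps30, had 12.5 and 12.4. Rps27a, a ubiquitin fusion, had 4.13 and 8.10, but these are different peaks, one upstream of the TSS in replicate 1 and one downstream in replicate 2.

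Rpl5 and Rpl11 bind the 5S RNA and, when free, the p53 regulator MDM2. Rpl5 had 6.80 and 9.30, and Rpl11 had 6.56 and 6.10, so Rpl5 lay near the median of the ribosomal protein genes (8.71) and Rpl11 near their lower quartile (6.28). Rps6, the subunit protein phosphorylated downstream of mTOR, had 8.74 and 9.77. Rpsa, which is also known as a laminin receptor precursor, had 10.2 and 8.70.

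Of 12 genes known to be mutated in the human disease Diamond-Blackfan anaemia, 11 had an open promoter at the main TSS, with a median of 8.90, and the remaining gene was Rps10. Rps24 had 7.59 and 10.2 in replicates 1 and 2, Rps7 had 6.01 and 8.00, and Rps29 had 11.7 and 10.9. Rps26 had 12.3 and 6.39, Rpl26 had 9.67 and 15.1, and Rpl35a had 3.18 and 5.87. Rps26, Rpl26 and Rpl35a each differed more than 1.5-fold between libraries, so a single library would have ranked them differently.

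Among other proteins of the large subunit, Rpl3 at the peptidyl transferase centre had 11.2 and 12.1, as given above. Rpl23a, Rpl19, Rpl35 and Rpl39, which surround the exit of the peptide tunnel together with Rpl31, lay lower than Rpl31. Rpl23a had 4.99 and 4.19, Rpl19 had 4.25 and 7.05, and Rpl35 had 4.34 and 5.04. Rpl38, needed in the mouse for patterning of the axial skeleton, had 6.34 and 9.17, and Rpl24, the gene mutated in the mouse mutant Belly spot and tail, had 6.55 and 7.31. Rpl41, which encodes the smallest of these proteins, had 7.70 and 5.01.

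In the small subunit, Rps2 and Rps3 lie at the mRNA entry channel. Rps2 had 13.2 and 13.0 and Rps3 had 10.9 and 9.10. Rps18, at the head of the subunit, had 13.8 and 12.4, and Rps15 had 5.62 and 6.28. Rps20, in which mutations darken the skin of mice, as they do in Rps19, had 6.14 and 7.76.

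The 4 X-linked genes, Rpl10, Rpl36a, Rpl39 and Rps4x, were all open but had a median of 4.78, against 8.84 for the 72 open autosomal ribosomal protein genes. Their means were 6.66, 4.87, 4.69 and 2.41. The same direction held for all genes, with a median of 2.55 over 396 open X-linked promoters and 4.81 over the autosomal ones. In females 1 X chromosome of each cell is inactive, and its part in these values was not tested. Rpl36al, the autosomal paralog of Rpl36a that falls outside the name rule, had 11.4 and 12.7, against 4.08 and 5.66 for Rpl36a. Rpl22l1, also outside the rule, had 13.2 and 15.0, against 9.28 and 9.05 for Rpl22. Rpl7l1 had 4.51 and 6.30, against 4.64 and 5.94 for Rpl7, and for both genes the values of the libraries come from different peaks.

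The spread between the 2 libraries at the ribosomal protein promoters was near that at all open promoters. The median absolute log2 ratio was 0.313 at the 76 open ribosomal protein promoters and 0.275 over all open promoters. On the log2 scale, replicate 2 over replicate 1 had a median of 0.17 with an SD of 0.42 at the 76 open promoters, against 0.13 with an SD of 0.42 over all open promoters. The signal was higher in replicate 2 at 50 of 76 (65.8%), against 63.1% of all open promoters. More than a 2-fold difference was seen at 1 of 76 (1.32%), against 2.8% of all, and the gene was Rps4x with a log2 ratio of 1.02. The next largest ratios were 0.97 for Rps27a, 0.96 for Rpl4 and −0.94 for Rps26. At Rps27a, Rpl7 and Rpl32 the strongest peaks of the libraries did not overlap, so the ratio there compares different peaks. Across genes, whose values are not independent replicates, Spearman's rho between the libraries was 0.831 over the 76 open ribosomal protein promoters and 0.962 over all 12908 open promoters, which span a wider range of signals.

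Genes of the wider translation machinery were set beside the ribosomal protein genes. All 78 mitochondrial ribosomal protein genes were open, with a median of 5.92 and a range of 1.13 to 20.3. All 22 genes of a list of translation factors and other genes with TOP mRNAs were open, with a median of 11.97. The highest of these were the elongation factor genes Eef1g, with 21.2 and 15.8, and Eef2, with 15.4 and 15.9, and between them the nucleolar gene Npm1, with 17.9 and 17.4. The lowest were Rack1, a protein of the small subunit that carries another kind of name, with 3.17 and 4.89, and the nucleolar methyltransferase gene Fbl, with 4.31 and 4.39. No test across samples bears on these medians, which describe the same 2 libraries.

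**Figure D2:**
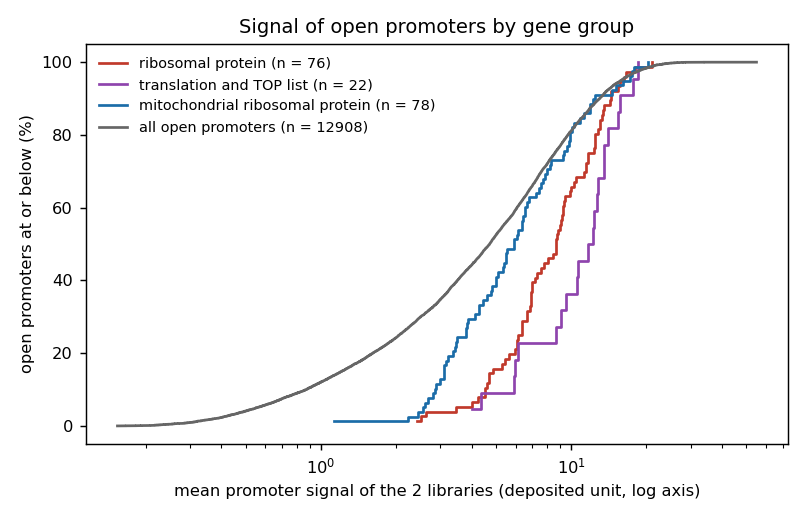
Cumulative share of open promoters (y axis, percent) at or below a mean signal (x axis, log scale) for ribosomal protein genes (n = 76), the translation and TOP list (n = 22), mitochondrial ribosomal protein genes (n = 78) and all open promoters (n = 12908). The curve of the ribosomal protein genes (median 8.71) lies between those of the TOP list (median 11.97) and the mitochondrial ribosomal protein genes (median 5.92).

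The mouse genome holds many processed copies of ribosomal protein mRNAs, and the copies annotated under ribosomal protein names with the suffix -ps gave 13 open starts among 294 (4.42%). Of these 13, 12 had a mean signal below 2, and their median was 0.710. The exception was Rpl29-ps2 with 7.50, which lies near the promoter of Akr1e1. Processed copies start at the mRNA and hold no promoter of the parent gene. Exon bases just downstream of a parent TSS do have near-identical copies elsewhere, and how reads that map to several places were treated is not given in the sources used here.

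The peaks were narrow and lay over or just before the TSS. The width of the strongest peak, averaged over the libraries, had a median of 230 bases at the ribosomal protein promoters and also at all open promoters. The widest were those of Rps14 with 480 and 400 bases in replicates 1 and 2, Rps19 with 540 and 240, and Rpl13a with 360 and 400. The narrowest were those of Rpl38 with 200 and 100 bases and Rps9 with 200 and 120, and among the next were Rpl7a with 220 and 120 and Rpl29 with 120 and 220. Width did not follow signal, with a Spearman rho of 0.056 across the 76 genes and 0.0567 across all open promoters.

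The peak centre had a median position 33 bases upstream of the TSS (−33), against −41.5 for all open promoters. It lay within 100 bases of the TSS at 56 of 76 genes and downstream of the TSS at 26, and no shares over all open promoters are given for these counts. A peak covered the TSS base in both libraries at 56 of 76 (73.7%), against 66.7% of all open promoters. Centres far downstream were those of Rpl35 (443.5 bases), Rpl30 (349.5) and Rps25 (336.5), and Rpl30 and Rps25 have another annotated start 418 and 556 bases downstream. The RefSeq start of Rpl35 lies 493 bases downstream, inside its peak. FDR-listed bases covered a median of 819 bases of the window of 500 on each side of the TSS in replicate 1 and 936 in replicate 2, against 784 and 855 at all open promoters. The first exons of the open genes were short, with a median of 94.5 bases, against 170 for mitochondrial ribosomal protein genes and 223 for all open genes.

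Footprints lay near most of these starts. A footprint was called shared where footprints of the libraries overlapped by at least 1 base. At least 1 shared footprint lay within 500 bases of the TSS at 75 of 76 open promoters (98.7%), against 91.5% of all open promoters, and within 150 bases at 73 of 76 (96.1%), against 82.5%. Footprint calls depend on signal. Among open promoters with a mean signal of 5 or more, 63 of 64 ribosomal protein promoters (98.4%) had one within 150 bases, against 95.8% of all such promoters. The exception at 500 bases was Rps14, with 7 footprints in replicate 1 and 1 in replicate 2, none of them shared. Rps25 and Rpl35, whose peaks lay downstream, had no shared footprint within 150 bases.

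The open promoters held a median of 5 shared footprints, and 4 within 150 bases, against 4 and 3 for all open promoters, which were not matched for signal. The most were found at Rps19 with 12, and Rpl7 had 10. Rplp0 had 6. Across all open promoters the number of shared footprints followed the signal, with a Spearman rho of 0.770, while across the 76 ribosomal protein promoters, most of them above the median signal, rho was 0.260.

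**Figure D3:**
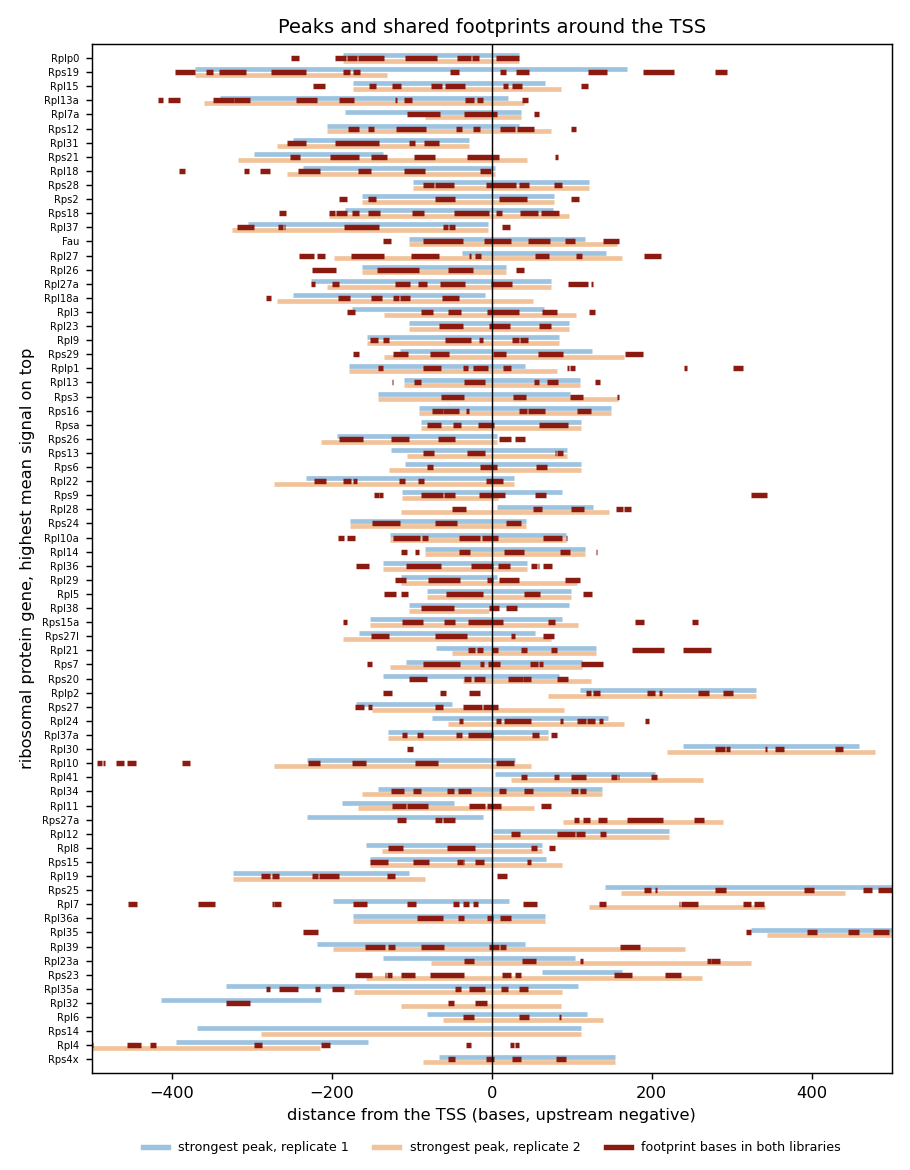
Position of the strongest peak in replicate 1 and in replicate 2 and of the bases under footprints of both libraries at 72 of the 76 open ribosomal protein promoters (rows, highest mean signal on top), against distance from the TSS in bases (x axis, upstream negative). Peaks of 53 of the 72 genes have their centre within 100 bases of the TSS, and those of Rpl30, Rps25 and Rpl35 lie far downstream.

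The footprinted bases were concentrated in the 100 bases before the TSS and the 50 after it. In the 50 bases before the TSS a base lay under a shared footprint at 32.2% of the ribosomal protein promoters on average, against 24.9% of all open promoters and 35.6% of those with a signal of 5 or more. From 100 to 51 bases before the TSS it was 31.3%, against 21.8% and 32.6%. In the first 50 bases of the transcribed part it was 26.5%, against 15.6% and 23.3%. In the 50 bases that begin 100 bases downstream it was 10.2%, against 4.58% and 7.05%. Upstream, from 300 to 151 bases before the TSS, it was 9% at the ribosomal protein promoters, 7.72% at all open promoters and 13.4% at those with a signal of 5 or more.

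Pyrimidine runs near the start were common among these genes. The longest run of C and T from 50 bases before to 150 after the TSS had 10 or more bases at 54 of 81 ribosomal protein genes (66.7%), against 29.5% of all protein-coding genes, and at 53 of the 76 open ones (69.7%), against 27.8% of all open promoters. The median run was 11 bases, against 8 for all protein-coding genes and 8 for mitochondrial ribosomal protein genes. The longest was found in Rpl7a with 21 bases, and Rpl34, Rpl27a and Rps2 had 20 each. Of the 22 genes of the translation and TOP list, 13 had a run of 10 or more. This window was chosen after the sequences had been seen. The run that touched the 10 bases on either side of the GENCODE start had a median of 5 bases at the open ribosomal protein promoters and 4 at all open promoters. At the RefSeq start, which was found for 61 of the 81 genes, a run of 8 or more touched the 10 bases on either side in 44.3% of them, against 13.7% of 16441 protein-coding genes.

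The shared footprints were also counted by their distance from these runs. Over the 53 open ribosomal protein promoters with a run of 10 or more, the bases of the run were footprinted at 11.1% on average, the 20 bases before it at 28.2% and the 20 bases after it at 24.4%. Over the 1562 open promoters with such a run and a signal of 5 or more, the values were 19.7%, 23.9% and 17.5%, and over all 3590 open promoters with such a run they were 13.1%, 15.6% and 11.1%. Coverage was highest from 60 to 21 bases before the run, at 40.8%, against 27.1% at the promoters with a signal of 5 or more and 17.0% at all open ones. In the first 10 bases from the start of the run it was 13.0%, against 20.1% and 13.4%. The runs began at differing positions relative to the TSS, from −50 in Rpl41 to 118 in Rpl27, and many lay downstream of it. Bases before such a run can be those around the TSS, where footprints were common in any case. The comparison promoters were not matched for the position of the run, and its part in these values was not tested. DNase I cuts some base contexts more readily than others, and the part of this preference in these values was not tested.

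**Figure D4:**
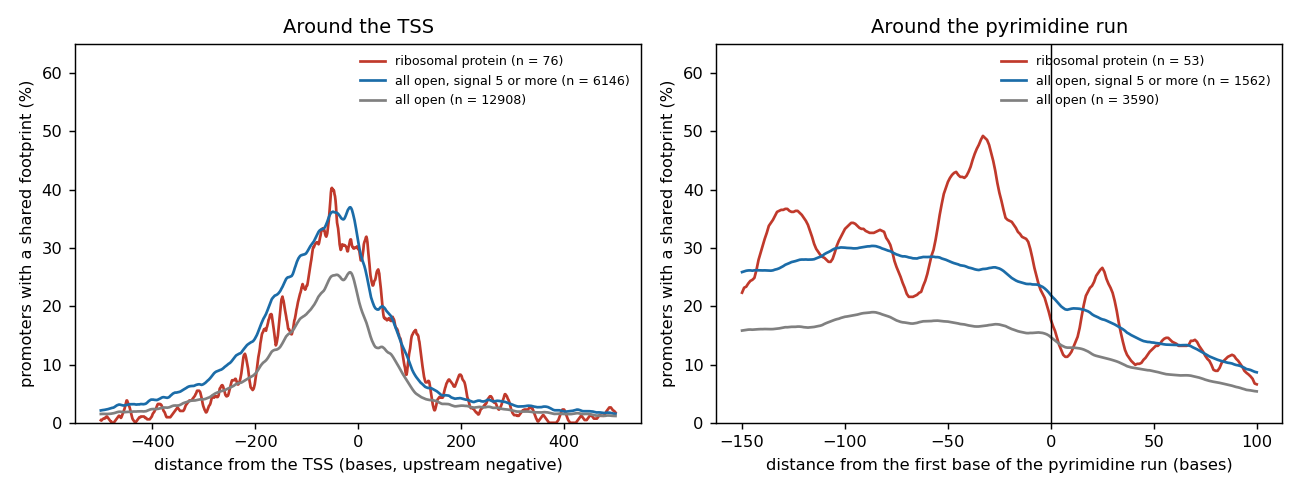
Share of promoters with a base under a shared footprint (y axis, percent, running mean of 11 bases), against distance from the TSS (left) and from the first base of the pyrimidine run (right), for ribosomal protein promoters, all open promoters with a signal of 5 or more and all open promoters. The ribosomal protein curve on the right is highest from 60 to 21 bases before the run (40.8% on average), drops at the run and rises again after it.

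Known motifs were searched as exact letters on both strands from 250 bases before to 50 after the TSS. A match is a description of the letters and not of binding, and shares of matches under footprints cover open promoters only. Footprint calls depend on signal, which was higher at the ribosomal protein promoters than at all open promoters. The shares of matches under footprints were not set beside promoters of like signal, so the part of signal in them was not tested. The palindrome of TCTCGCGA and GA, to which ZBTB33 is known to bind, was held by 6 of 81 ribosomal protein promoters (7.41%). The share was 0.623% of all protein-coding and 0.976% of all open promoters. Among the 6 were Rps6, Rpl4, Rpl26, Rpl10a and Rps28. In 5 of the 6, all but Rpl4, the match overlapped a shared footprint, and of the 133 matches at all open promoters 86.5% did. Its 8-letter core TCTCGCGA, searched after the first result had been seen, was held by 12 of 81 (14.8%). Of all protein-coding promoters 1.42% held it, and of all open ones 2.19%. The core overlapped a shared footprint in 9 of the 12, including Rpl7a, Rps15a and Rpl23a. Of its matches 77.8% did, against 75.96% at all open promoters.

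The ETS element CCGGAAG was held by 23 of 81 promoters (28.4%), against 11.3% of all protein-coding and 17.1% of all open promoters. Of its 26 matches, 57.7% overlapped a shared footprint, against 45.3% of the matches at all open promoters. In Rps21, Rps7, Rpl31, Rpl15, Rpl37 and Rpl8 a footprinted match lay within 80 bases before the TSS, while in Rps6 and Rpl26, printed above, the upstream match was not footprinted. The YY1 element AANATGGC was held by 11 of 81 (13.6%), against 6.37% of all protein-coding and 8.10% of all open promoters. Of its 12 matches, 75% overlapped a shared footprint, against 39.1% at all open promoters. In Rps15a, Rpl23a and Rpl35a the YY1 element lay from 36 to 45 bases after the TSS. The element ACTACAA, to which THAP11 and ZNF143 are known to bind, was held by 11 of 81 (13.6%). Of all protein-coding promoters 3.77% held it, and of all open ones 4.23%. A total of 27.3% of its matches overlapped a shared footprint, among them that of Rps9, against 25.1% at all open promoters. With RefSeq starts the share of ribosomal protein promoters holding it was 6.56%, over 61 genes.

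Other elements lay closer to the background share or rested on few genes. The SP/KLF element GGGCGG was held by 40 of 81 (49.4%), against 45.6% of all protein-coding and 64.95% of all open promoters, and 79.7% of its 64 matches overlapped a shared footprint, against 55.9% at all open promoters. The NF-Y element CCAAT was held by 25 of 81 (30.9%), against 38.4% of all protein-coding and 38.4% of all open promoters. The NRF1 element was held by 5 of 81 (6.17%), against 6.17% of all protein-coding and 9.84% of all open promoters. All 6 NRF1 matches, among them those of Rpl37a, Rps15 and Rpl10a and 2 in Rpsa, overlapped a shared footprint, against 90.7% of the matches at all open promoters. The cyclic AMP response element was held by 5 of 81 (6.17%), against 2.53% of all protein-coding and 3.50% of all open promoters. The 5 were Rps9, Rpl27a, Rpl13, Rps29 and Rpl26. All but the Rpl26 match overlapped a shared footprint, against 86.6% of the matches at all open promoters. With RefSeq starts 9.84% of 61 genes held the cyclic AMP response element. The E-box CACGTG was held by 9 of 81 (11.1%), against 7.84% of all protein-coding and 10.2% of all open promoters, and by 3.70% in a window from 100 bases before the TSS. No ribosomal protein promoter held TATAAA on the gene strand from 40 to 20 bases before the TSS, against 2.49% of all protein-coding promoters.

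**Figure D5:**
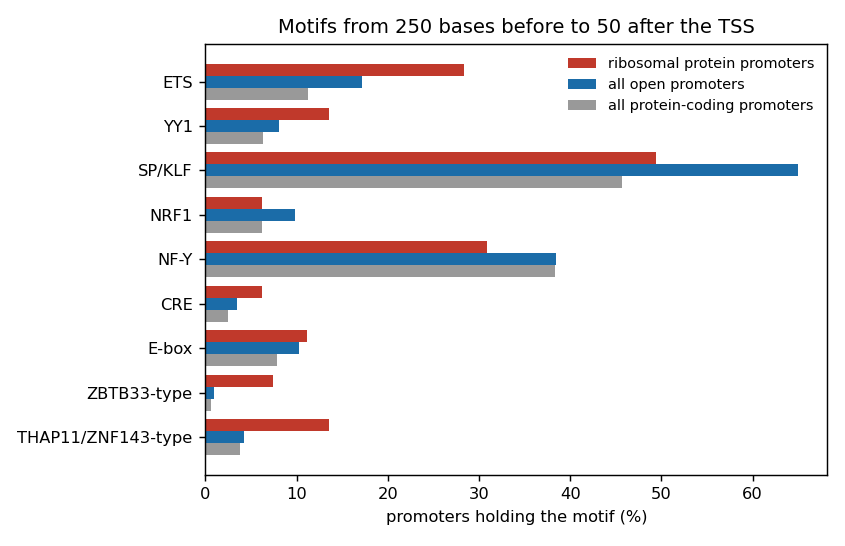
Share of promoters that hold each motif as exact letters (x axis, percent) for the 81 ribosomal protein genes, all open promoters and all protein-coding promoters. The bars of the ribosomal protein genes exceed both others for ETS (28.4%), YY1 (13.6%), CRE (6.17%), E-box (11.1%), ZBTB33-type (7.41%) and THAP11/ZNF143-type (13.6%) and lie below all open promoters for SP/KLF, NRF1 and NF-Y.

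Base composition differed in the same comparison. The open ribosomal protein promoters had a median GC content of 55.8%, against 61.0% for all open promoters, and a median CpG ratio of 0.846, against 0.758. Signal followed the CpG ratio with a Spearman rho of 0.402 across the 76 genes and 0.336 across all open promoters. Rpl7a had the highest GC content among the ribosomal protein promoters, at 67.7%, and Rpl41 the lowest, at 36.7%. Motifs rich in CG depend on these values, and their part in the motif shares was not tested.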

How the data were processed

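DNase-seq libraries of kidney, replicates 1 and 2 of 1 group, were deposited by the authors as peak lists, a list of false discovery rates and a footprint list, made library by library on mm10 from filtered alignments, per the file headers. Which aligner, peak caller and footprint caller were run is not given in the sources used here. The peak signal is as deposited by the authors, in whole steps per library within 0.05 steps, and the longer list was used. The deposited FDR is a q-value per run of bases with no value above 0.05. The footprints carry a constant level of 0.01, set by the authors and not a p-value per site.

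From these lists the strongest peak within 500 bases of the main TSS was taken for each gene in each library. The main TSS was that of the APPRIS principal protein-coding transcript of GENCODE M21, and sequence came from GRCm38.p6. Values are means ± SD (n = 2). A single group allows no test between conditions, and counts stand beside those of all protein-coding genes. Motif matches were counted as footprinted where they overlapped a shared footprint by at least 1 base. RefSeq starts on GRCm38.p6 were an alternative for the 61 genes with one. Named were the genes without a peak, the 10 highest, the 5 lowest, the extremes of ratio, width and footprint number, and lists by role, and some others of these genes were named after their values were seen. A few genes under these rules are not reported here. The members and lists were chosen with earlier results of these data known. Scripts ran in Python 3.11.15 with numpy 2.4.6, pandas 2.3.3 and matplotlib 3.10.9 and were tested on simulated data. Alternatives were other windows, starts, peak lists, name rules and overlaps, and leaving out each library.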

Additional observations from a re-analysis of the deposited data

How the results depend on the processing

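A total of 66 values were recomputed under alternative settings. Of these, 56 moved by less than the spread between the libraries, or 1.5 times for counts, and 10 moved by more. A change of sign was not counted separately. For signal, width and position the spread came from the single-library medians. Leaving out 1 library is thus no independent check of these values. Without 1 of the libraries the median signal lay between 7.57 and 9.13 (8.71 with both), the median width between 220 and 240 bases, the peak centre between −42.5 and −23, and the share of open promoters stayed at 93.8%. With RefSeq starts the median peak centre was −55.5 in place of −33, over 61 genes, the share holding the CRE was 9.84% and that holding ACTACAA 6.56%. Counting only matches in a shared footprint gave 16.05% for ETS, 12.3% for NF-Y, 4.94% for the E-box and 3.70% for ACTACAA, which follows from the narrower criterion. A window from 100 bases before the TSS gave 3.70% for the E-box. The core TCTCGCGA, added after seeing the data, gave 14.8% in place of 7.41% for the full palindrome. Windows of 100 and 2000 bases gave 86.4% and 96.3% open promoters among the ribosomal protein genes. The shares of all protein-coding genes open in these windows were not computed. The cause of the shifts with RefSeq starts was not tested. Of 61 RefSeq starts, 20 lay within 10 bases of the GENCODE start, 14 lay over 100 bases away and 38 lay downstream, so positions relative to the TSS carry that error. No paired analysis was possible because the design holds 1 group. No interval from tag counts is given because the tags per library are inferred and not stated.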

Other observations

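Of the 81 ribosomal protein genes, 29 held annotated small nucleolar RNAs in their bodies, 56 in all, with the most in Rpl4 (5), while Rpl13a held 4. The share of such hosts among all protein-coding genes was not computed. Small nucleolar RNAs guide the modification of ribosomal RNA and are cut from introns of the host transcript. The 28 open hosts had a median promoter signal of 9.37, against 8.67 for the 48 open ribosomal protein genes without such a guest, and both groups spanned nearly the whole range, from 2.51 to 16.2 and from 2.41 to 21.0.

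Of the 81 genes, 8 started within 1000 bases of a gene on the other strand that pointed away from them. Among these pairs Rps28 and the respiratory complex I gene Ndufa7 started 10 bases apart, Rpl9 and the lipoic acid synthase gene Lias 53, Fau and the mitochondrial ribosomal protein gene Mrpl49 59, and Rpl15 and Nkiras1 69. All 8 were open, with a median of 12.8, against 8.58 for the 68 others. The 2 low ones were Rpl4, paired with Zwilch 271 bases away, with 1.70 and 3.32, and Rpl35a, paired with Iqcg 263 bases away, with 3.18 and 5.87. A peak of such a pair cannot be assigned to either gene. Neither the share of genes in such pairs nor their signal was computed over all protein-coding genes. Rps2 and the closed paralog Rpl3l started 7757 bases apart on chromosome 17, with 13.2 and 13.0 at Rps2 and no peak at the main TSS of Rpl3l.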
